A study of Mus musculus with 139 samples.

Results

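C/D box small nucleolar RNAs with an assigned Snord name were described across the tissues of a mouse atlas of small non-coding RNA. The members were the rows of the deposited gene table with the biotype snoRNA and a name starting with Snord. The imprinted Snord115 and Snord116 clusters and the rows Snord32a, Snord33, Snord34 and Snord35a were left out. This gave 77 members of 6114 rows, on 17 chromosomes. The study sequenced small RNA from 11 tissues of 14 untreated wild-type C57BL/6J mice aged 3 months, an inbred laboratory strain. Libraries had been combined in pools. The pool named N467 held 47 libraries of liver, spleen, kidney, pancreas and lung, and N469 held 48 libraries of brain, muscle, intestine, heart and bone marrow, all from female animals 1 to 10. N541 held 36 libraries of those 10 tissues from male animals 11 to 14. Another 3 libraries were labelled testis. Their names are each shared by a sample of N541 and a later sample without a given pool. Which of these the counts came from is not known, and so neither is their pool. Tissues were therefore compared within a pool, and differences between pools cannot be told apart from differences between these animals or between the sexes. Per the labels each replicate of a tissue was a separate animal.

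C/D box snoRNAs are short nucleolar RNAs named for a pair of sequence elements, box C near the 5′ end and box D near the 3′ end. They assemble with fibrillarin, NOP56, NOP58 and SNU13, and most guide the addition of a methyl group to the ribose of a target base through a stretch that pairs with ribosomal RNA or with the spliceosomal U6 RNA. A few, among them U3, U8, U13, U14 and U22, act in the cutting or folding of the ribosomal RNA precursor. In mammals nearly all are cut from introns of host genes, many of which encode ribosomal proteins, translation factors or nucleolar proteins, and in bulk tissue fewer cells of a type cannot be told apart from less snoRNA per cell.

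The sequences of the members on which the tissue and pool comparisons turn are given here from GENCODE M21 transcripts of GRCm38, 5′ to 3′. Capitals mark the letters TGATG within the first 30 nt and the last CTGA within the last 20 nt, searched on the transcript strand only as the core of boxes C and D. Both were found in 66 of the 77 members (85.71%), and none of the 42 Snora transcripts, the H/ACA box family, held both. Snord49a, Snord49b and Snord65 lie in introns of 1 host transcript, 2410006H16Rik, at chr11:62603450-62603521 (+ strand), chr11:62603079-62603150 (+ strand) and chr11:62604515-62604586 (+ strand). Snord42a and Snord42b lie in introns of the ribosomal protein gene Rpl23a at chr11:78181299-78181363 (- strand) and chr11:78183056-78183124 (- strand). Each pair of near namesakes guides methylation within the same ribosomal RNA, and the pairs were 63.89% (Snord49a and Snord49b) and 68.12% (Snord42a and Snord42b) identical over their aligned length.
Snord49a: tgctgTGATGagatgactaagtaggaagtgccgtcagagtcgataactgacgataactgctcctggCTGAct
Snord49b: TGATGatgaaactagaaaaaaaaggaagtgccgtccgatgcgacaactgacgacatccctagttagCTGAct
Snord65: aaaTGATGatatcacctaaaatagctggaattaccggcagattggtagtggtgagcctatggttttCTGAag
Snord42a: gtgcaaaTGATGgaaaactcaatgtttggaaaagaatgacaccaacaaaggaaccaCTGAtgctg
Snord42b: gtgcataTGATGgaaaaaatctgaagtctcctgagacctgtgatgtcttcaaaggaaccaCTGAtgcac

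Among the members called in liver in both pools were Snord123, which lies at chr15:32241853-32241923 (- strand) in the long non-coding host Snhg18, Snord66 at chr16:20684239-20684313 (+ strand) in the translation initiation factor gene Eif4g1, and Snord104 at chr11:106500993-106501062 (+ strand). Snord118, also called U8, is at chr11:69073427-69073561 (+ strand). In M21 neither Snord104 nor Snord118 lies inside another gene on its strand.
Snord123: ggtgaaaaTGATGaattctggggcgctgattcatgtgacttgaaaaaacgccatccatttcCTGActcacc
Snord66: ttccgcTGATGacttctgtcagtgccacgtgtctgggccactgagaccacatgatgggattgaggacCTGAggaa
Snord104: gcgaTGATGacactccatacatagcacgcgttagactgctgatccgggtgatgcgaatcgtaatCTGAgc
Snord118: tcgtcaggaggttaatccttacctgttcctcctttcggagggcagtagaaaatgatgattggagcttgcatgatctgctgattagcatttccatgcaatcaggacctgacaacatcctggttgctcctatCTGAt

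The shallowest library held 10255 counts and the deepest 34095704 (median 6327550). Under 100000 counts were found in 8 libraries. The exact 95% Clopper-Pearson interval of the member share had a median width of 0.01095 percentage points to either side and at most 0.2534. These intervals cover counting error only, since reads without molecular identifiers are not independent molecules. Tissue-specific miRNAs stood above all other libraries in every brain, heart, liver and spleen library. They did so in 13 of 14 muscle, 11 of 13 lung, 11 of 12 pancreas, 7 of 14 kidney, 6 of 12 intestine and 1 of 12 bone marrow libraries. Relative to the highest tissue median of each marker set, bone marrow markers led in the spleen libraries of animals 6, 7, 9 and 10. The library of pancreas from animal 11 (10255 counts) had 81716 CPM (counts divided by the library's total and multiplied by 1000000) of the intestinal Mir215 and 2340 CPM of the pancreatic Mir216a, Mir217 and Mir375, against 20240 to 109825 CPM in the other pancreas libraries. The muscle libraries of animals 2 and 13 had 359 and 314 CPM of the muscle markers Mir206 and Mir133b, the lowest of all muscle libraries, and 621516 and 344898 CPM of Mir10a and Mir10b, the highest. Mir10a and Mir10b were the kidney markers, with a kidney median of 621171 CPM. Relative to the highest tissue medians, as above, kidney markers led in both of these muscle libraries. In the 3 libraries labelled testis the 7 testis miRNAs summed to 4 counts of 88979905, while Mir205, an epithelial miRNA, stood at 5439 to 6870 CPM against at most 14.1 CPM for the median of any other tissue. These libraries went against their label and are called the libraries labelled testis.

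Of the 77 members, 39 had counts and 38 stood at 0 in all 134 libraries. A count of 0 over all libraries allows a counted level of up to 0.00279 CPM (3 counts of the total). It bounds the RNA itself only if reads from these rows could be counted. The split followed the annotation of overlapping exons. All 37 members free of a same-strand exon of another M21 gene had counts. Of the 40 members that overlap such an exon 2 had counts, Snord66, with 1 of its 75 nt in an exon, and Snord42b, with 22 of 69 nt. All 38 members at 0 overlapped by at least 66 nt, 36 of them over their whole length, and for 29 the overlapping transcripts included one with a retained intron. Overlap on the other strand did not go with 0, since Snord4a and Snord42a had counts. How reads that match several features were counted is not given in the sources used here, and its part in the zeros was not tested.

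**Figure D1:**
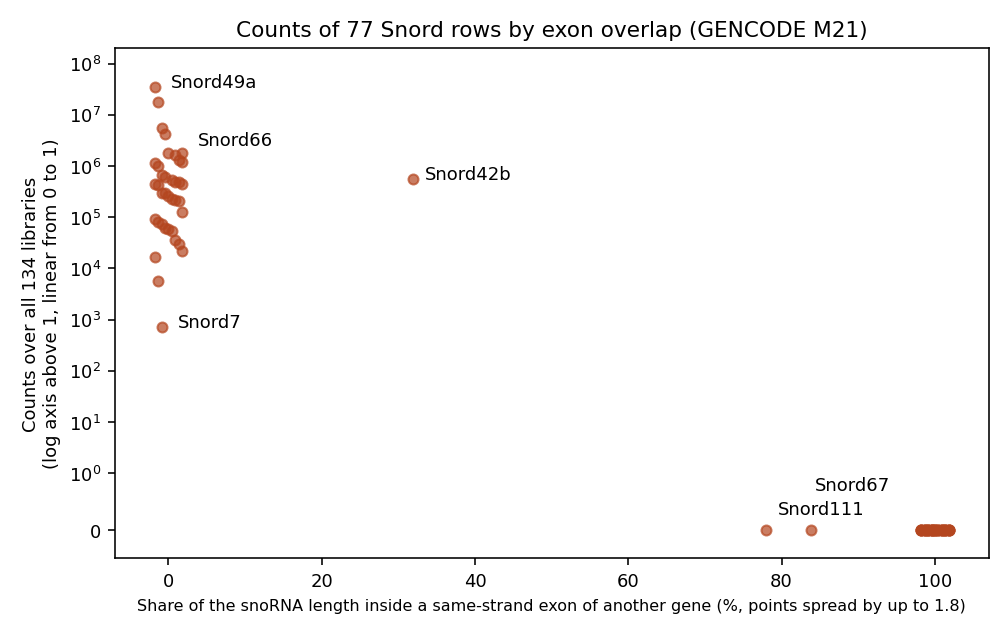
Each of the 77 members is placed by the share of its length in a same-strand exon of another gene (horizontal axis, percent) and its total counts over 134 libraries (vertical axis, log scale, with 0 shown apart). Members without overlap have counts, and those with at least 66 nt of overlap are at 0.

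Members at 0 included whole host families. The 4 snoRNA rows of Gas5 (Snord47, Snord78, Snord80 and Snord80.1), a host whose own mature RNA is a growth-arrest transcript, were at 0, as were the 3 of 1810032O08Rik (Snord1a, Snord1b, Snord1c) and the 3 of the chaperone gene Hspa8 (Snord14c, Snord14d, Snord14e). Of 16 hosts with several members, 8 had all members at 0, 4 had all counted and 4 were mixed. In the mixed hosts neighbours from 1 gene fell on both sides: in Nop56, which encodes a core snoRNP protein, Snord110 was counted and Snord57 was not. Snord88c was counted and Snord88a, 94.44% identical to it, stood at 0. By target, 13 of 20 guides to 18S rRNA, 13 of 32 guides to 28S rRNA, 1 of 2 guides to 5.8S rRNA (Snord71) and 2 of 3 guides to U6 (Snord7 and Snord8) had counts. Of the 7 members that act in rRNA processing, Snord13 and Snord118 had counts, and Snord14a, Snord14c, Snord14d, Snord14e and Snord22 did not. Both imprinted members, Snord64 and Snord107, were at 0. These lists were set by name, and 11 members, 8 of them counted, stood in none. A list therefore may not hold every guide to its target. Among the H/ACA rows named Snora, 4 of 21 with a same-strand exon overlap had counts (19.05%) and all 17 without it did. For miRNA rows the order was the other way, 89.42% of 359 overlapping rows and 51.33% of 1687 free rows having counts.

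The 39 counted members were 64 to 238 nt long (median 78), and 19 were no longer than the 75-base read. Levels were dominated by a few members. Snord49a, a guide to 28S rRNA, had 34183098 counts and Snord55, another, had 17425864, together 66.3% of all member counts. With Snord110, a guide to 18S rRNA (5434828 counts), and Snord83b, from the ribosomal protein gene Rpl3 (4182953), the share was 78.6%. As the mean share of the member sum over tissues and pools, Snord49a had 22.1% and Snord55 15.2%. Snord110 had 8.09%, Snord85 7.67%, Snord104, a 28S guide, 6.51% and Snord66, an 18S guide, 5.32%. Snord17 (3.61%), Snord83b (3.43%), Snord4a (3.42%) and Snord49b (2.74%) completed the 10 largest. Of the 39 members, 8 were found in every library, and the rarest, Snord7, was found in 85.

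The sum of the members was compared first as a percentage of each library's counts. In N467 it was highest in spleen, at 3.71% to 5.81% (median 4.60%), and lowest in kidney, at 0.312% to 0.534% (median 0.410%). Every kidney library lay below every other library of the pool. Pancreas held 1.71% to 3.94% (median 3.16%), liver 1.36% to 3.53% (median 1.99%) and lung 0.748% to 1.41% (median 1.12%). The liver range overlapped with those of pancreas and lung, and every pancreas library lay above every lung library. Against the other 4 tissues the log2 ratio of medians was 1.76 for spleen and -2.66 for kidney (adjusted p = 8.11e-09 for each, exact two-sided rank-sum test, Benjamini-Hochberg over 21 comparisons). Lung (log2 ratio -1.18, adjusted p = 0.057), pancreas (1.19, adjusted p = 0.102) and liver (0.35, adjusted p = 0.76) did not pass in this exact test. With each animal as its own block, by an exact sign-flip test, pancreas and lung did pass, with mean log2 differences of 1.07 and -0.76 (adjusted p = 0.0117 for each).

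In N469 bone marrow stood above every library of the other tissues, at 1.58% to 2.47% (median 1.97%), with a log2 ratio of 1.72 (adjusted p = 8.35e-09, same exact test). Brain held 0.747% to 1.05% (median 0.918%), heart 0.558% to 0.879% (median 0.606%), muscle 0.179% to 0.728% (median 0.540%) and intestine 0.104% to 0.699% (median 0.410%). Intestine was lower than the other tissues (log2 ratio -0.90, adjusted p = 0.000364), as was muscle (-0.51, adjusted p = 0.0253), and brain was higher (0.63, adjusted p = 0.0358), by the same exact test. Without the muscle library of animal 2 the brain and muscle differences no longer passed (0.62, adjusted p = 0.0508, and -0.44, adjusted p = 0.0511, exact test). As a share of counts outside tRNA rows, which made up different parts of these libraries, intestine (-0.25, adjusted p = 0.842) and brain (0.35, adjusted p = 0.266) no longer passed in the exact test. With TMM-scaled totals brain turned to -0.19 (adjusted p = 0.236) and muscle to 0.04 (adjusted p = 0.597), by the exact test. The erythroid miRNAs Mir451a and Mir144 had their highest N469 median in bone marrow, 44616 CPM (12606 to 76923 CPM). Heart stood at 1978 to 51319.6 CPM (median 6192) and overlapped with it, and the other medians were at most 1223 CPM. In N467 spleen these miRNAs stood at 3255 to 24178 CPM, and the medians of the other tissues were at most 1817 CPM. In N541 their median was 12119 CPM in heart, 4083 CPM in spleen and 2989 CPM in bone marrow. The part of red cell precursors in the snoRNA levels was not tested.

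**Figure D2:**
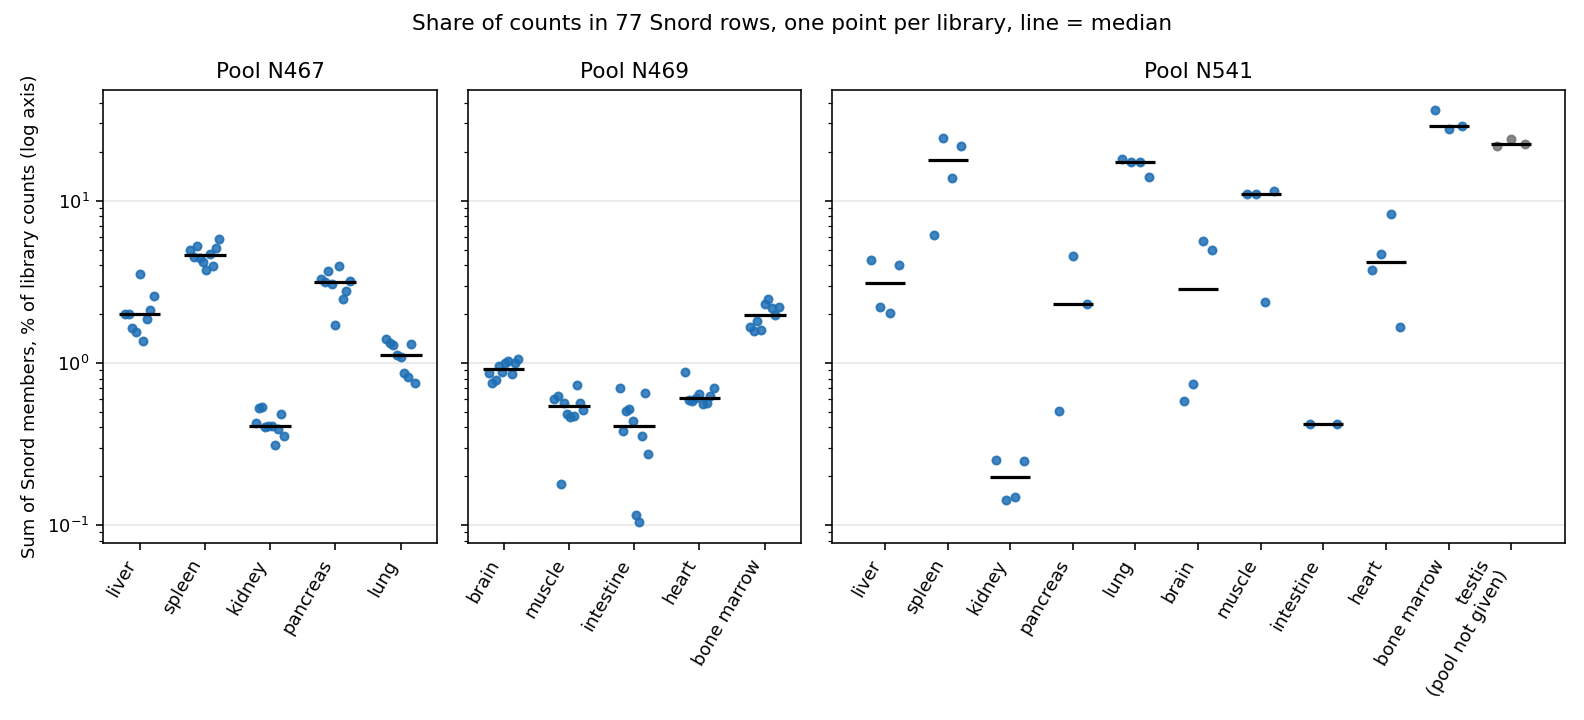
The sum of the Snord members as a percentage of counts (vertical axis, log scale) is shown for each library by tissue and pool, with the median as a bar. Kidney is lowest and spleen highest in N467, bone marrow is highest in N469, and in N541 the tissues spread from 0.198% in kidney to 28.8% in bone marrow.

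In N541 the sum spanned a wider range. Kidney had 0.250%, 0.142%, 0.149% and 0.247% in its 4 libraries, below all others (log2 ratio -4.74, adjusted p = 0.000178, exact two-sided rank-sum test). Bone marrow had 36.1%, 27.6% and 28.8% in 3 libraries, above all others of the pool (2.74, adjusted p = 0.00098, exact test). Lung had 18.2%, 17.4%, 17.3% and 13.9%, and spleen 6.12%, 24.3%, 13.9% and 21.8%. Muscle had 11.0%, 11.1%, 2.36% and 11.6%, the lowest in the library of animal 13. Lung (2.06, adjusted p = 0.0511), spleen (2.09, adjusted p = 0.0768) and intestine (-3.51, adjusted p = 0.119, 0.421% in both of its libraries) did not pass in the exact test. Heart had 3.75%, 4.67%, 8.25% and 1.67%, brain 0.581%, 0.740%, 5.61% and 4.96%, liver 4.30%, 2.21%, 2.02% and 4.03% and pancreas 0.507%, 4.54% and 2.29%. These 4 tissues and muscle did not differ from the rest beyond their spread (adjusted p at least 0.486, exact test). Library depth moved with the share in N541: the median totals were 26023483 for lung, 24266660 for muscle and 14638850 for bone marrow, and 13795 for pancreas, 600152 for liver, 708869 for brain and 988947 for kidney. Its part in the differences was not tested.

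Much of the height of the N541 tissues came from Snord49a and Snord55. Snord49a made up 16.7% to 62.6% of the sum in the medians of the N541 tissues and 0.92% to 5.5% in those of N467 and N469. Without Snord49a, Snord55 and Snord110, the 3 members with the most counts, the N541 medians were 3.64% for bone marrow, 3.77% for lung, 2.97% for spleen and 2.79% for muscle. On these remaining members lung passed the exact test in N541 (log2 ratio 1.54, adjusted p = 0.00723).

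The effect of a tissue on the sum differed between the pools for 4 tissues. For each animal the log2 share in a tissue was set against the mean of its other tissues of the same set. Lung was -0.76 on average in N467 (range -1.44 to -0.45, 9 animals) and 3.05 in N541 (range 2.32 to 3.75, 4 animals; adjusted p = 0.0140 over 10 tissues, exact two-sided rank-sum test). Lung thus lay below the mean of the animal's other tissues of the set in all N467 animals and above that mean in all N541 animals. Kidney was low in both, by -2.52 and -5.13 (adjusted p = 0.0140 for the difference, exact test), and bone marrow high in both, by 1.81 and 3.52 (adjusted p = 0.0303, exact test). Pancreas was 1.07 in N467 and -0.88 in N541 (adjusted p = 0.0455, exact test). Within a tissue the N541 median was 20.4 times the N469 one in muscle, 14.6 times in bone marrow and 6.94 times in heart, and 15.5 and 3.87 times the N467 one in lung and spleen, with no overlap of libraries. In kidney it was 0.484 times (adjusted p = 0.00559, exact test, as for muscle, lung, heart and spleen; 0.0152 for bone marrow), while liver, brain, pancreas and intestine overlapped between pools.

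Members differed from each other in how they moved between pools. The difference N541 minus the other pool was averaged over 5 tissues on the log2 scale in an edgeR quasi-likelihood fit of all rows. Against N467, 8 of 38 members were higher and 11 lower (background 3.97% and 24.7% of 1007 rows), a call being an adjusted p under 0.05 and a log2 difference of at least 1. Against N469, 17 of 39 were higher and 8 lower (background 4.17% and 25.1% of 1222 rows). Called the same way against both pools were 7 higher members, Snord49a, Snord55, Snord49b, Snord71, Snord82, Snord42a and Snord73a, and 7 lower ones, Snord17, Snord42b, Snord72, Snord11, Snord90, Snord88c and Snord15a, while 1 member had opposite calls. Of the 958 rows tested in both sets 1.46% were higher against both pools and 16.8% lower. With the member sum as the scale 3 members, Snord49a, Snord55 and Snord71, were higher against both and 22 lower (0.418% and 60.3% of rows), and Snord49b, Snord42a and Snord73a turned to -0.09, -0.86 and -0.22 against N469. The largest rise was that of Snord49a, 5.56 ± 0.23 (SE) against N467 and 6.59 ± 0.21 against N469. In bone marrow Snord49a stood at 577 to 1485 CPM (median 1069.5) in N469 and at 226017, 171368 and 208179 CPM in the 3 N541 libraries, which do not overlap. The largest fall was that of Snord42b, -6.54 ± 0.42 and -3.52 ± 0.26. The first value includes pancreas, where Snord42b was at 0 in all 3 N541 libraries, of 10255 to 66250 counts, so its size is uncertain. In spleen Snord42b stood at 1424 to 4751 CPM (median 3079) in N467 and at 53.5, 150.0, 86.9 and 129 CPM in N541, again without overlap. Snord55 differed by 2.29 and 4.53, and Snord71, the 5.8S guide, by 2.85 and 3.97. Snord72, a 28S guide from the ribosomal protein gene Rpl37, differed by -4.89 and -1.39, and also stood at 0 in N541 pancreas.

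**Figure D3:**
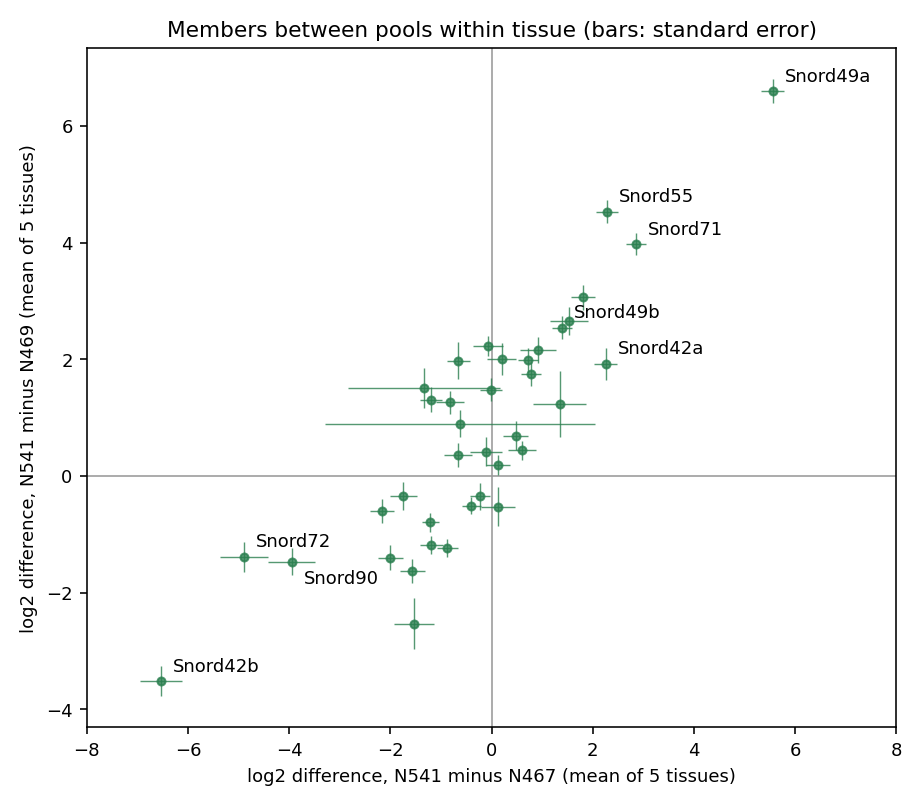
Each point is 1 of 38 members, placed by its log2 difference N541 minus N467 (horizontal axis) and N541 minus N469 (vertical axis), each a mean over 5 tissues. Snord49a lies far above 0 on both axes and Snord42b far below.

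Neighbours from 1 host separated between the pools. Per 100 nt of length, the median of the tissue means in N467 was 370.1 CPM for Snord49a, 310.4 CPM for Snord49b and 267 CPM for Snord65, which share the host 2410006H16Rik. In N541, over 10 tissues, the same quantity was 17427 CPM for Snord49a, 1211 CPM for Snord49b and 221 CPM for Snord65. In N469 it was 203, 206.3 and 60.2 CPM, so that Snord49a and Snord49b were close to each other in N467 and N469 and far apart in N541. In Rpl23a, the level per 100 nt was 1445 CPM for Snord4a, 991 CPM for Snord42b and 66.5 CPM for Snord42a in N467. In N541 it was 1049, 40.6 and 332 CPM, so that Snord42a, lower than Snord42b in N467, was the higher of the pair. Across the 38 members the pool difference had a Spearman rho with length of -0.36 against N467 and -0.35 against N469, given as a description of members that share the same libraries.

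Tissue by tissue, each member was tested in the same kind of fit, with its log2 level in a tissue set against the mean of the other 4 tissues of the pool after TMM scaling of all rows. Snord7 was too low to be tested in these fits, leaving 38 members. In N467, 17 members were higher and 1 was lower in spleen (background 24.1% and 20.3% of 906 rows). In kidney 11 were lower (11.0%) and in lung 7 (16.3%). In liver 8 were higher and 2 lower (17.1% and 17.7%), and in pancreas 6 were higher and 9 lower (19.4% and 29.4%). In N469, 14 were higher and 1 was lower in bone marrow (23.8% and 30.6% of 990 rows), 4 and 8 in intestine (30.5% and 25.3%), 1 and 8 in brain (35.8% and 31.5%), 3 and 5 in heart (16.2% and 24.9%), and 3 and 1 in muscle (18.1% and 21.5%). The shares of members called were near the background or below it in most tissues, and above it for higher calls in spleen and bone marrow and for lower calls in kidney. The median log2 difference of the members was 0.88 in spleen, 0.65 in bone marrow and -0.56 in kidney, and that of all rows lay between -0.51 and 0.15 in N467 and between -0.45 and -0.03 in N469.

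**Figure D4:**
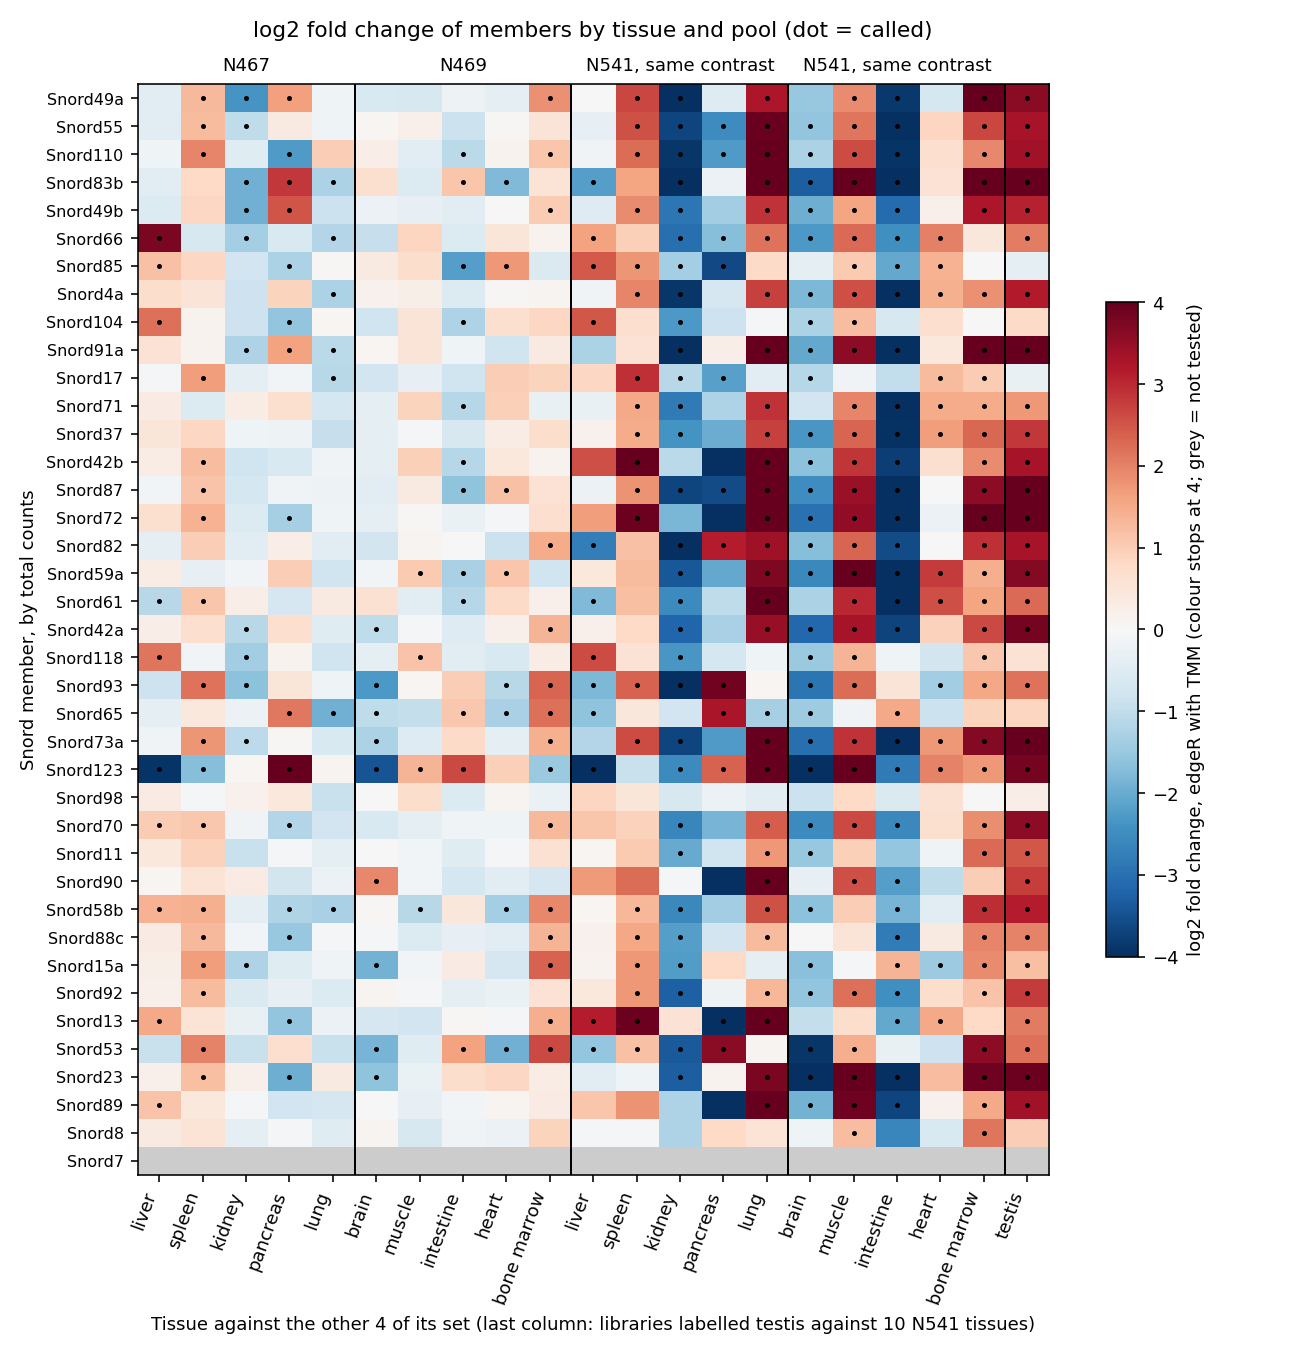
The log2 difference of each member in a tissue against the mean of the other 4 tissues is shown by colour, with members in rows and tissues in columns, in blocks for N467, N469 and the same contrasts in N541, a dot marking a call and grey a member not tested. The last column holds the libraries labelled testis. Spleen and bone marrow columns are mostly positive and kidney mostly negative in both, and lung changes sign between the pools.

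The scaling decided many of these calls. When libraries were scaled by the member sum in place of TMM, so that a call shows a change relative to the other members, spleen had 6 higher and 2 lower, kidney 6 higher and 1 lower, liver 3 higher and 9 lower and bone marrow 6 higher and 4 lower. With unscaled totals, spleen had 34 higher, kidney 38 lower and bone marrow 32 higher. Scaling by the member sum centres the members on themselves, so these splits bear on differences among members and not on the direction they share. In N541 the same 5-tissue contrasts called 20 members higher in spleen (background 17.4% of 932 rows), 31 in bone marrow (31.9%), 30 in muscle (24.1%) and 28 in lung (26.2%), and 30 lower in kidney (13.7%), 29 in brain (34.8%) and 28 in intestine (17.5%). Opposite to these, 1 member was lower in lung (6.76%) and 2 were higher in intestine (18.5%). Heart had 11 higher and 2 lower (20.7% and 12.3%), and liver 5 and 7 (11.8% and 7.51%). Leaving out animal 12 lowered these to 13 in spleen, 15 in kidney and 17 in brain, and leaving out animal 13 or 14 left 14 or 5 lower in intestine. Liver calls fell to between 4 and 7 without animal 12, 13 or 14, and heart calls to 8 or 5 without animal 12 or 13. With the member sum as the scale the N541 splits were 3 higher and 22 lower in bone marrow, 19 and 2 in kidney, 9 and 13 in lung and 1 and 4 in spleen.

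Calls made the same way in both pools were counted beside those of all rows tested in both, 779 for the tissues of N467 and 879 for those of N469. In spleen 14 of 38 members were higher in both (background 11.9%), in bone marrow 12 (17.3%), and in kidney 11 were lower (5.78%). In intestine 7 were lower and 1 was higher (9.33% and 14.1%). In brain 8 were lower (26.5%), a share below the background. In liver 5 were higher and 2 lower (8.86% and 5.91%), in pancreas 2 and 3 (7.19% and 10.8%) and in heart 2 and 1 (13.2% and 9.10%). In muscle 3 were higher (14.1%) and in lung 1 was lower (4.24%). The members described next are those called the same way in both pools. Those named for all 4 scalings were called in both pools with TMM, DESeq2 size factors, unscaled totals and the member sum.

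Liver showed the most calls that held across scalings and pools. Snord104, Snord118 and Snord66 were higher and Snord123 and Snord61, an 18S guide, lower in liver under all 4 scalings in both pools. Snord104 stood at 1288 to 5181 CPM (median 3878) in N467 liver, next to 1618 to 3508 CPM (median 2848) in spleen, and the other 3 tissues had medians of 359.5, 726 and 1325 CPM. In N541 the 4 liver libraries had 3051, 3495, 2194 and 3314 CPM, and no other tissue median was above 1940.3 CPM, that of spleen. Its log2 difference was 2.21 ± 0.17 (adjusted p = 9.28e-16) in N467 and 2.49 ± 0.39 (adjusted p = 6.27e-06) in N541, by edgeR as for all values of this kind below. Snord118, or U8, which is needed to make mature 28S and 5.8S rRNA, stood at 429 to 1514 CPM (median 1111) in N467 liver and 68.1 to 132 CPM (median 84.0) in kidney, which do not overlap. In N541 liver it had 889.9, 735, 727 and 849.6 CPM, and the highest spleen library had 535. Its log2 difference was 2.14 ± 0.23 (adjusted p = 3.85e-11) and 2.62 ± 0.31 (adjusted p = 3.08e-08).

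Snord66 stood at 1121 to 22191 CPM (median 2318) in N467 liver and 312 to 3060.1 CPM (median 2369.7) in pancreas. The liver libraries had the highest value but overlapped with pancreas and spleen. In N541 liver Snord66 had 3151, 1573, 1871 and 3406 CPM, overlapping with N541 lung at 3679.8, 3542, 3407 and 2996 CPM. Its log2 difference in liver was 3.75 ± 0.38 (adjusted p = 7.04e-12) in N467 and 1.62 ± 0.43 (adjusted p = 0.00539) in N541, where it no longer passed without animal 14 (1.34, adjusted p = 0.153). Snord123 moved the other way. It stood at 0.448 to 50.7 CPM (median 19.5) in N467 liver, below every library of the other 4 tissues except at the upper end, where it met kidney (49.6 to 156 CPM (median 82.3)). In N541 liver it had 2.20, 7.66, 6.67 and 5.55 CPM. The log2 difference was -3.93 ± 0.37 (adjusted p = 5.59e-13) and -3.99 ± 0.78 (adjusted p = 0.000175). Snord13, the U13 RNA, and Snord85 were also called higher in liver in both pools under TMM. For Snord13 the N541 contrast includes pancreas, where it was at 0. Its highest N541 means were in spleen and lung, 136 and 84.5 CPM.

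Pancreas was marked by Snord123 and Snord65. In N467 Snord123 stood at 1503 to 9333 CPM (median 5409.7) in pancreas and at 113.5 to 247 CPM (median 199) in lung, the next tissue. Every pancreas library lay above every other N467 library, by a log2 difference of 5.42 ± 0.23 (adjusted p = 7.62e-27). In N541 the 3 pancreas libraries had 0, 453 and 72.5 CPM, from 0, 30 and 1 counts. At those depths 3 counts correspond to 293, 45.3 and 217.5 CPM, so lower levels could not be seen in the libraries of animals 11 and 13. The N541 call (log2 difference 2.34 ± 0.63 (adjusted p = 0.00449)) rested on the library of animal 12, and without that animal the value was -0.86 (adjusted p = 1). The difference in effect between the pools was itself called (-3.11, edgeR interaction), and in N541 it was lung that had the most Snord123, 763, 819, 689.6 and 778 CPM.

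Snord65, an 18S guide, was higher in pancreas in both pools. It stood at 325 to 6667 CPM (median 1191) in N467 pancreas, and overlapped with spleen at 199 to 1915 CPM (median 978). In N541 pancreas it had 1073, 3381 and 4857 CPM, from 11, 224 and 67 counts, and the highest library of any other N541 tissue, a spleen one, had 975 CPM. All 3 pancreas libraries were thus above every other N541 library. The log2 difference was 2.12 ± 0.36 (adjusted p = 2.39e-06) and 3.27 ± 0.40 (adjusted p = 2.42e-08), and 3.66 without the pancreas library of animal 11. Snord13 was lower in N467 pancreas (-1.57, adjusted p = 0.000343), with 4 of the 9 libraries at 0, and was at 0 in all 3 N541 pancreas libraries, for which no fold is given. Snord110, whose log2 difference was -2.26 in both pools, was called in N541 under TMM and not under the other 3 scalings, nor without animal 11 (-1.83, adjusted p = 0.0633), 12 (-2.48, adjusted p = 0.0777) or 14 (-2.21, adjusted p = 0.059), nor without the pancreas library of animal 11 (-1.99, adjusted p = 0.106). In N541 pancreas 5 members were higher and 7 lower (background 9.66% and 12.1%), and without that library 5 were higher and 3 lower.

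Spleen and bone marrow, both blood-forming or lymphoid tissues, had the most members called the same way in both pools. Snord17, the longest member and a 28S guide, was higher under all 4 scalings in both pools. It stood at 3248 to 7892 CPM (median 5104) in N467 spleen, above every other N467 library, of which the highest was a pancreas one at 2742 CPM. In N541 spleen it had 2473, 2674, 2777 and 2254 CPM, and the highest library outside spleen, a liver one, had 547 CPM. Its log2 difference in spleen was 1.67 in N467 (adjusted p = 1.16e-07) and 2.93 in N541 (adjusted p = 1.96e-08). Snord93, an 18S guide, was higher in spleen by 2.16 ± 0.26 (adjusted p = 9.1e-10) and 2.35 ± 0.40 (adjusted p = 1.66e-05). Snord110 was higher by 1.96 ± 0.23 (adjusted p = 3.23e-10) and 2.24 ± 0.46 (adjusted p = 0.000232). Relative to the member sum neither was called in N541 spleen (0.61 and 0.05).

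Snord53, a 28S guide from Wdr43, had the largest log2 difference in N469 bone marrow among the members called in both pools. It stood at 76.1 to 123 CPM (median 112.05) in N469 bone marrow, and the highest library of another tissue, an intestine one, had 46.3 CPM. In N541 bone marrow it had 164, 107.9 and 121.3 CPM. The log2 difference was 2.65 ± 0.21 (adjusted p = 1.46e-15) in N469 and 3.57 ± 0.35 (adjusted p = 1.21e-10) in N541. Relative to the member sum it was 2.11 in N469 and 0.37 in N541, where it was not called. Snord53 was also higher in spleen, by 1.97 in N467 and 1.18 in N541, though in N541 not without animal 12 (1.20, adjusted p = 0.0677) and at -0.55 relative to the member sum. Among the others higher in both pools was Snord15a, by 2.36 ± 0.20 (adjusted p = 1.45e-14) and 1.88 ± 0.30 (adjusted p = 1.17e-06). Snord58b was higher by 1.93 ± 0.20 (adjusted p = 4.58e-12) and 2.95 ± 0.42 (adjusted p = 2.69e-07). Snord93 was higher by 2.33 ± 0.24 (adjusted p = 6.03e-12) and 1.56 ± 0.44 (adjusted p = 0.00271), in N541 not without animal 14 (1.51, adjusted p = 0.0559). Relative to the member sum these turned in N541 bone marrow, to -1.36 for Snord15a, -0.19 for Snord58b and -1.88 for Snord93. Snord49a was the member called higher in bone marrow under all 4 scalings in both pools. Snord123 had opposite calls, lower in N469 and higher in N541.

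By target list, 9 of 13 guides to 28S rRNA and 5 of 13 guides to 18S rRNA were higher in N467 spleen (median log2 differences 1.30 and 0.93). In N541 spleen the counts were 11 of 13 and 4 of 13 (medians 1.72 and 1.17). In N469 bone marrow 6 of 13 of each list were higher (medians 0.88 and 0.62). In N467 kidney 5 of 13 guides to 28S rRNA and 3 of 13 to 18S rRNA were lower. By host, 6 of 11 members in genes of ribosomal proteins or translation factors and 11 of 27 others were higher in N467 spleen, and 6 of 11 and 5 of 27 were lower in N467 kidney. In N541 kidney, against the same 4 tissues, 9 of 11 and 21 of 27 were lower by host, and 12 of 13 guides to 28S rRNA and 10 of 13 to 18S rRNA. In N469 bone marrow 4 of 11 and 10 of 27 were higher by host. Of all rows tested 24.1% were higher in N467 spleen and 23.8% in N469 bone marrow, and 11.0% were lower in N467 kidney. In N541 spleen 17.4% were higher against the same 4 tissues and 20.3% against the other 9. In N541 kidney 13.7% were lower against the same 4. The lists and host groups share libraries and were not tested against each other.

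Kidney had the lowest tissue mean of 34 of the 38 tested members in N467 (41.6% of all 906 rows) and of 21 in N541 (22.6% of 932 rows). Snord49a was lower under all 4 scalings in both pools. It stood at 26.8 to 63.6 CPM (median 34.9) in N467 kidney, below every other N467 library, of which the lowest was a liver one at 69.5 CPM. In N541 kidney Snord49a had 471, 205.6, 235 and 433 CPM, again below every other library of the pool. The log2 difference was -2.37 ± 0.27 (adjusted p = 1.26e-10) and -5.44 ± 0.92 (adjusted p = 1.82e-05). All 11 members lower in N467 kidney were lower in N541 too, among them Snord49b by -1.92 ± 0.28 (adjusted p = 1.17e-07) and -2.89 ± 0.62 (adjusted p = 0.000396). Snord83b was lower by -1.92 ± 0.25 (adjusted p = 7.14e-09) and -6.08 ± 1.04 (adjusted p = 2.28e-05), and Snord93 by -1.66 ± 0.33 (adjusted p = 3.25e-05) and -4.51 ± 0.64 (adjusted p = 9.59e-07). In N541 kidney Snord83b averaged 3.37 CPM and Snord93 4.56 CPM, in libraries of 301536 to 2663695 counts, so these folds rest on few counts. Relative to the member sum Snord49b turned to 1.02 in N541 kidney.

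Lung had the most members with opposite calls in the pools, 5, against at most 2 in another tissue. Snord65 was the member lower in both, at 22.7 to 252 CPM (median 114.1) in N467 and 164, 145, 151 and 129.8 CPM in N541. Its log2 difference was -1.92 ± 0.47 (adjusted p = 0.000636) and -1.34 ± 0.46 (adjusted p = 0.0201), and in N541 it did not pass without animal 12 (-1.45, adjusted p = 0.0964), 13 (-1.33, adjusted p = 0.0788) or 14 (-1.17, adjusted p = 0.141). The 5 members, Snord91a, Snord4a, Snord83b, Snord66 and Snord58b, were lower in N467 lung and higher in N541 lung. The lung effect itself was higher in N541 than in N467 for 27 of 38 members (edgeR interaction, background 11.9% of 1007 rows), and the kidney effect was lower for 22 (background 9.04%). The tissue effect was higher for 3 in spleen (3.28%), lower for 2 in liver (0.397%), and higher for 3 and lower for 10 in pancreas (5.76% and 3.48%). Against N469 it was lower for 35 of 39 members in intestine (31% of 1222 rows) and 11 in brain (1.64%), and higher for 32 in muscle (11.7%) and 32 in bone marrow (34.7%). Relative to the member sum the lung effect was higher for 9 members and lower for 12. The kidney effect was then higher for 10 and lower for 2, and the intestine effect higher for 9 and lower for 6. The muscle effect was higher for 10 and lower for 6, and the bone marrow effect higher for 1 and lower for 15. On this scale the share of members lay below that of all rows for lower calls in lung and muscle. The same held for higher calls in kidney and intestine. In the other splits the share of members was above that of all rows, though the shares were close for bone marrow.

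In brain Snord123 and Snord53 were lower in both pools under all 4 scalings. Snord123 stood at 0 to 10.6 CPM (median 6.92) in N469 brain, below every other N469 library, of which the lowest was a muscle one at 11.0 CPM. In N541 brain it had 0, 0, 2.57 and 2.87 CPM, from 0, 0, 3 and 8 counts. The library of animal 11 held 17201 counts, at which 3 counts are 174 CPM. The log2 difference was -3.47 ± 0.34 (adjusted p = 6.56e-13) and -5.25 ± 0.87 (adjusted p = 2.09e-06). Snord53 had 3.37 to 8.18 CPM (median 7.02) in N469 brain, within the range of muscle and overlapping with heart, and its log2 difference was -1.87 ± 0.27 (adjusted p = 2.84e-08) and -3.89 ± 0.56 (adjusted p = 1.66e-07). Snord93 was lower in brain by -2.28 ± 0.31 (adjusted p = 8.03e-09) and -2.92 ± 0.54 (adjusted p = 1.39e-05). Snord15a was lower by -1.88 ± 0.26 (adjusted p = 6.36e-09) and -1.67 ± 0.40 (adjusted p = 0.000388). In N541 brain Snord93 was called under 3 of the 4 scalings and Snord15a under 2. In N469 the lowest tissue mean of Snord93, Snord15a and Snord53 was that of heart, and the highest that of bone marrow. Their N469 brain differences are set against a mean that includes bone marrow, and do not mark brain as the lowest tissue. Snord90, from the gene of the RNA-binding protein Rc3h2, was the 1 member higher in N469 brain. It stood at 107.95 to 348 CPM (median 208) there and its highest library elsewhere, a bone marrow one, had 105.3 CPM, so that the brain libraries did not overlap with the rest (log2 difference 1.93 ± 0.18, adjusted p = 1.88e-13). In N541 brain Snord90 had 0, 7.96, 34.3 and 27.6 CPM, below N541 lung, and was not called (-0.34, adjusted p = 0.57).

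In muscle Snord123, Snord118 and Snord59a, an 18S guide from the ATP synthase gene Atp5b, were higher in both pools under TMM. None of them had its highest N469 tissue mean, in CPM, in muscle. That mean was highest in intestine for Snord123, in bone marrow for Snord118 and in brain for Snord59a. Muscle came next for Snord123 and Snord118. In N469 muscle Snord123 was called under 3 of the 4 scalings, Snord118 under 2 and Snord59a under 1. Their lowest log2 differences there were 0.52, 0.33 and 0.33. Snord59a stood at 22.04 to 173 CPM (median 117) in N469 muscle, overlapping with brain, heart and bone marrow. In N541 muscle it had 2529, 1973, 145 and 1529 CPM, the lowest in animal 13. Its log2 difference was 1.06 ± 0.22 (adjusted p = 6.11e-05) in N469 and 4.08 ± 0.53 (adjusted p = 6.09e-08) in N541. Without the muscle libraries of animals 2 and 13 these were 1.12 and 4.43. The values for Snord123 were 1.37 ± 0.25 (adjusted p = 7.62e-06) and 4.36 ± 0.52 (adjusted p = 1.11e-08), and without those libraries 1.41 and 4.72. Snord118 had 1.14 ± 0.17 (adjusted p = 1.87e-07) and 1.34 ± 0.33 (adjusted p = 0.00108), and -0.59 relative to the member sum in N541. In heart Snord59a was also higher, by 1.12 ± 0.22 (adjusted p = 5.24e-05) and 2.79 ± 0.51 (adjusted p = 3.68e-05). In N469 heart it was called under 2 of the 4 scalings, down to 0.45. Snord85 was higher by 1.72 ± 0.35 (adjusted p = 5.99e-05) and 1.39 ± 0.38 (adjusted p = 0.00403), in N541 not without animal 12 (1.23, adjusted p = 0.0565) or 13 (1.31, adjusted p = 0.0713). Snord93 was lower in heart by -1.10 ± 0.30 (adjusted p = 0.00243) and -1.40 ± 0.48 (adjusted p = 0.0207), in N541 not without animal 13 (-0.98, adjusted p = 0.24) or 14 (-1.50, adjusted p = 0.0956).

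In intestine 7 members were lower and Snord65 was higher in both pools, N541 having 2 intestine libraries. Snord85 stood at 13.6 to 478 CPM (median 191) in N469 intestine and at 88.7 and 161 CPM in N541. Its log2 difference was -2.21 ± 0.44 (adjusted p = 1.6e-05) and -2.04 ± 0.63 (adjusted p = 0.0107). Snord59a was lower by -1.28 ± 0.25 (adjusted p = 1.59e-05) and -5.74 ± 1.13 (adjusted p = 0.000158), and stayed called in N541 without each animal in turn. Snord87, a 28S guide from the long non-coding host Snhg6, was lower by -1.61 ± 0.21 (adjusted p = 3.42e-09) and -4.52 ± 0.93 (adjusted p = 0.000242). Snord71 was lower by -1.15 ± 0.18 (adjusted p = 1.3e-07) and -4.14 ± 1.02 (adjusted p = 0.00183). In N541 the calls of Snord85 (-1.76, adjusted p = 0.221, and -2.32, adjusted p = 0.159) and Snord71 (-3.93, adjusted p = 0.0737, and -4.28, adjusted p = 0.0924) ended without animal 13 or 14, and that of Snord87 without animal 14 (-3.81, adjusted p = 0.0661). Relative to the member sum Snord85 turned to 1.19 in N541 intestine.

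**Figure D5:**
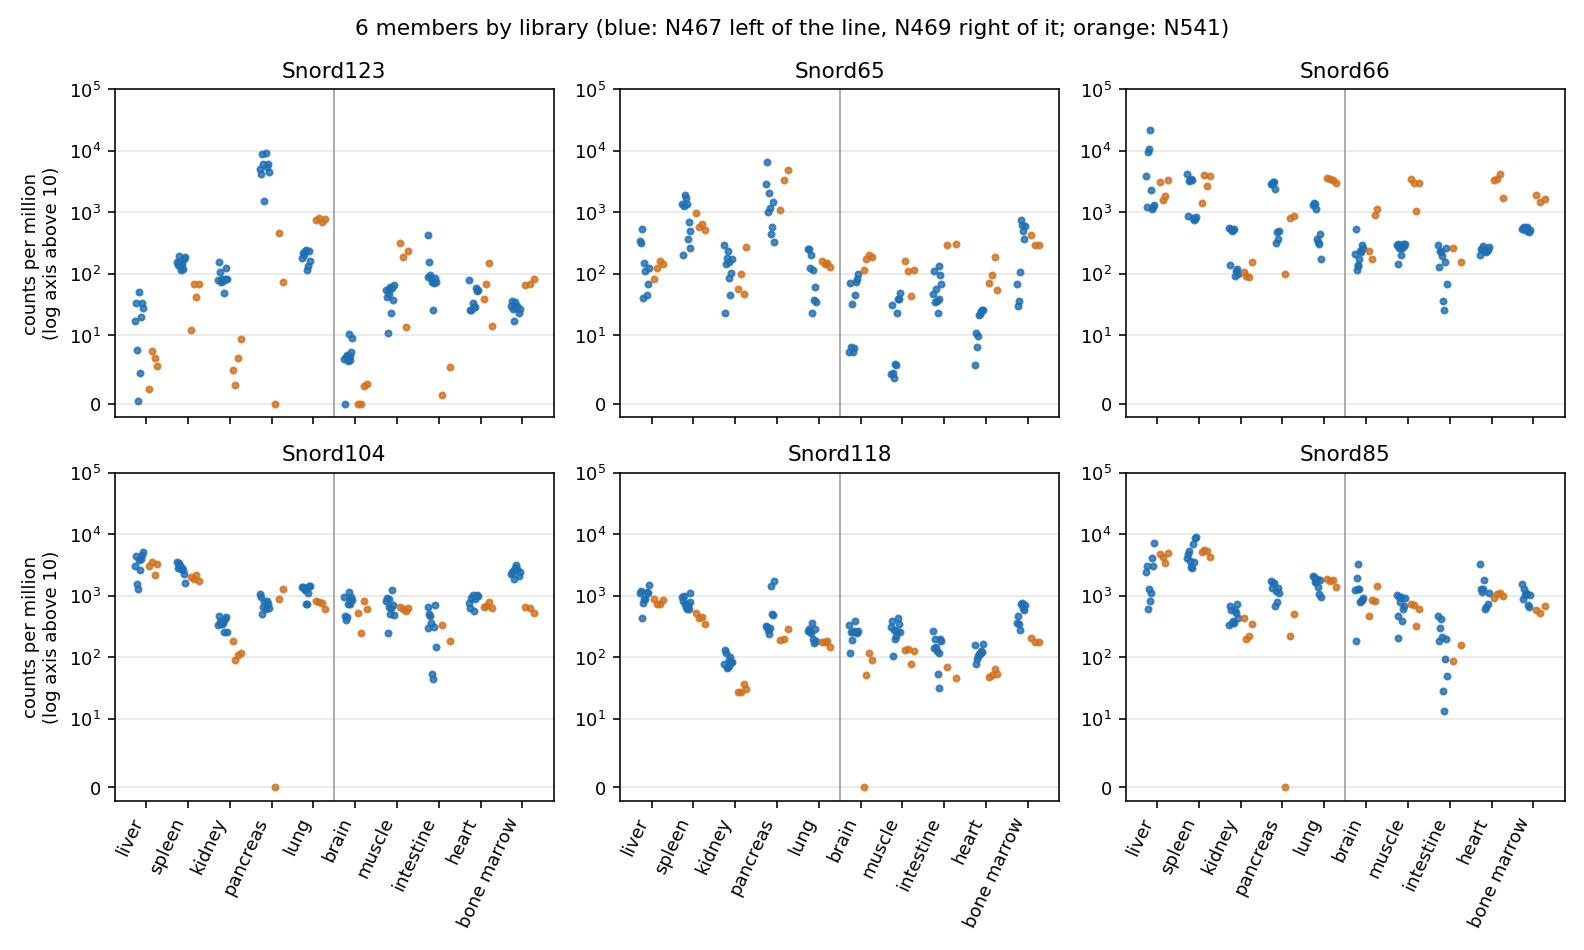
The level of 6 members, Snord123, Snord65, Snord66, Snord104, Snord118 and Snord85, is shown in each library (vertical axis, CPM on a log scale that is linear near 0) by tissue, with N467 and N469 in blue and N541 in orange. Snord123 is highest in pancreas in blue and in lung in orange, and Snord104 and Snord118 are high in liver in both colours.

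Of the counted members that act in rRNA processing or guide U6, Snord118 had 299064 counts over all libraries, Snord13 36367, Snord8 5585 and Snord7 707. Snord13 stood at 40.0 to 66.9 CPM (median 45.4) in N467 spleen and 7.81 to 50.7 CPM (median 29.3) in liver, and its log2 difference in liver was 1.53 in N467 (adjusted p = 1.89e-06) and 3.15 in N541 (adjusted p = 0.0426). The N541 value is set against tissues that include pancreas at 0, and the N541 means of Snord13 were highest in spleen and lung. In N469 it was highest in bone marrow, at 15.2 to 92.3 CPM (median 65.7) (log2 difference 1.46, adjusted p = 1.81e-07). Snord8, a guide to U6 from the chromatin gene Chd8, stood at 7.59 to 25.6 CPM (median 16.1) in N467 spleen and 0.669 to 3.86 CPM (median 1.91) in kidney, without overlap. Its tissue differences passed no test in N467 or N469, the nearest being bone marrow (0.90, adjusted p = 0.0017, short of the log2 difference of 1). In N541 Snord8 was higher in bone marrow (2.15, adjusted p = 1.97e-05) and muscle (1.25, adjusted p = 0.0152).

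Over the 10 tissues of N541 Snord98, an 18S guide from Ccar1, had the smallest log2 range of tissue means among the 30 members with the most counts, 2.64. Its N541 medians ran from 39.8 CPM in intestine to 246 CPM in spleen, and its log2 differences in N467, N469 and the 5-tissue contrasts of N541 lay between -0.90 and 0.86, short of a call. Against the other 9 tissues of N541 it was called higher in liver (1.21, adjusted p = 0.00019) and lower in brain (-1.20, adjusted p = 0.000644). Snord11 (4.17), Snord104 (4.58), Snord118 (4.69) and Snord65 (4.91) followed, and of these Snord104 and Snord118 passed in liver and Snord65 in pancreas as given above.

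Against the other 9 tissues of N541 the picture was close to that of the sum. Lung had 30 of 38 members higher (background 30.5% of 932 rows), muscle 27 (29.5%), bone marrow 27 (34.0%) and spleen 20 (20.3%). Kidney had 28 lower (14.6%), brain 25 (22.2%) and intestine 24 (8.69%). Without animal 12 kidney had 13 lower and brain 11, and intestine had 3 without animal 13 and 1 without animal 14. Liver had 7 higher and 6 lower (16.4% and 9.23%), heart 9 and 4 (20.1% and 6.22%) and pancreas 5 and 4 (9.23% and 9.33%). Without animal 13 heart had 3 higher and 4 lower, and without animal 12 pancreas had 2 and 3.

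The 3 libraries labelled testis held 21.8%, 23.9% and 22.5% of their counts in members, of which Snord49a made up 51.5%. Their sum did not pass against N541 (log2 ratio 2.29, adjusted p = 0.0511, exact two-sided rank-sum test), and they lay within the range of N541 spleen. In the edgeR test against the 10 tissues of N541, 31 of 38 members were higher (background 26.8% of 948 rows). With the member sum as the scale 5 were higher and 11 lower. The largest differences were those of Snord83b (5.88), Snord72 (5.88), Snord91a (4.62), Snord73a (4.26) and Snord87 (4.16). The 10 tissues include N541 pancreas, where Snord72 stood at 0. Snord17, Snord85, Snord98, Snord118 and Snord104 were among the 7 that did not pass. Since the tissue of these libraries went against its label and their pool is not known, the values describe the libraries.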

How the data were processed

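Small RNA libraries had been made and read as 75-base single reads by the authors. The labels give a library size range of 135 to 210 bp. The deposited values are raw read counts per annotated gene, deposited unnormalised. The tools included STAR 2.5.1 and featureCounts, and the genome build was mm10/GRCm38, per the submitters' processing notes. The sources used here do not give their settings.

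The members, gene lists and tests were chosen with earlier results of these data known. Members were matched by name to GENCODE M21 (77 of 77). The member sum as a percentage of each library's counts was compared by exact two-sided rank-sum tests (scipy 1.17.1 in Python 3.11.15). Members were tested with all rows in edgeR 4.0.16 (R 4.3.3, limma 3.58.1), as a quasi-likelihood fit per pool after filterByExpr with a minimum count of 10 and TMM scaling. A call needed a Benjamini-Hochberg adjusted p under 0.05 over all rows tested and an absolute log2 difference of at least 1. DESeq2 1.42.0 was an alternative, and the test was checked on simulated data.

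Members were named by rule: the 10 with the largest mean share of the sum; per tissue up to 4 with the largest change among those called the same way in both pools; the imprinted, U6-directed and rRNA processing lists; the 5 with the largest pool difference, with Snord49a and Snord42b; the 5 with the smallest tissue range in N541; and the 5 largest in the libraries labelled testis. Snord90 in brain, Snord123 in lung and the members with opposite calls were named after their values were seen. Per the labels the same number is the same animal, so the numbers pair the libraries of a pool. The median correlation of their deviations from the tissue means over pairs of tissues was 0.0345 in N467, 0.1064 in N469 and -0.2031 in N541. Fold differences per gene can also carry the overlap of reads with other genes, since the counting of such reads is not given. Some host genes and sequences are not reported here.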

Additional observations from a re-analysis of the deposited data

Results flagged for a closer look

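The member sum of 3 libraries lay apart from the others of its tissue and pool, by the gap to the nearest library. The heart library of animal 1 was the highest of 9 in N469 at 0.8791%. The muscle library of animal 2 was the lowest of 10 in N469 at 0.1792%, and that of animal 13 the lowest of 4 in N541 at 2.3644%. Of the 17 groups examined, chance would set apart about 1 in 20. Both muscle libraries were also the muscle libraries lowest in the muscle markers Mir206 and Mir133b and highest in the kidney markers Mir10a and Mir10b. The part of this in their sums was not tested.

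The effect of a tissue on the sum, per animal and on the log2 scale, differed between N541 and the other pool by -2.6044 for kidney, -1.953 for pancreas, 3.8082 for lung and 1.7124 for bone marrow (exact two-sided rank-sum test, adjusted p at most 0.0455). Among the named members the tissue effect differed between pools by edgeR interaction terms, given here as N541 minus the other pool. In kidney the difference was -3.222 for Snord49a, -4.2392 for Snord83b and -2.9958 for Snord93, with few counts of Snord83b and Snord93 in N541 kidney. For Snord123 it was -3.109 in pancreas and 3.6433 in muscle, and for Snord59a 3.5691 in muscle and -6.0317 in intestine. Snord87 and Snord71 differed by -4.5317 and -4.6056 in intestine. Snord53 differed by -2.0524 in brain and 1.9509 in bone marrow, and Snord58b by 2.1821 in bone marrow. All of these have the same sign in both pools except the sums of lung and pancreas. Pool, animals and sex cannot be told apart in them.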

How the results depend on the processing

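Of 411 values under other settings, 354 kept their direction and side of the threshold, or a count within 1.5 times. For the sum (log2 ratios), the replicate block (paired exact sign-flip within animals) brought pancreas (1.0746) and lung (-0.7553) of N467 past the threshold. It ended the calls of N541 kidney (-4.7708), where 4 animals cannot give a p under 0.125, and bone marrow (3.4543), where 3 cannot give one under 0.25, and turned N541 heart to 0.1519. With TMM-scaled totals N467 liver (0.7826) and lung (-0.5789), N541 lung (2.2353) and the libraries labelled testis (3.0814) passed, and N469 brain (-0.1908), muscle (0.0449) and heart (0.5774) and N541 heart (0.0544) turned, none of the turned passing. Outside tRNA rows N469 brain (0.3495) and intestine (-0.2459) no longer passed. Without the 3 members with the most counts N541 lung (1.5432) and the libraries labelled testis (1.7363) passed, and N541 liver turned to 0.05. Without the muscle library of animal 2, a setting chosen after seeing the data as was that without the muscle library of animal 13, N469 brain (0.6188) and muscle (-0.4404) no longer passed. Leaving out animals 1 at a time, N541 brain ranged from -2.6561 to 0.2037 and N541 heart from -0.4009 to 0.0781. The cause was not tested.

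Counts of called members moved by over 1.5 times in these settings. With the member sum as the scale they were 8 in N467 spleen, 7 in kidney and 2 in lung, 4 in N541 spleen, 5 in brain and 13 in intestine, and 16 in the libraries labelled testis. Called alike in both pools were then 2 in spleen, 6 in kidney, 4 in brain, 5 in intestine and 5 in bone marrow. With unscaled totals they were 34 in N467 spleen and 38 in kidney, 16 in N469 muscle and 32 in bone marrow, and 31 in N541 spleen and 5 in brain. With DESeq2 size factors they were 18 in N467 kidney and 16 in lung, and with the DESeq2 Wald test 18 and 17. A joint fit of the pools gave 23 in N467 kidney, 16 in lung (15 higher), 19 in N469 brain and 8 in muscle. Without the count filter N469 brain had 17. With the replicate block 2 members were called alike in lung, and no other count moved by over 1.5 times. Leaving out animals 1 at a time, or the pancreas library of animal 11 or the muscle library of animal 13, N541 counts ran from 13 to 28 in kidney, 5 to 11 in pancreas, 11 to 27 in brain, 1 to 24 in intestine and 7 to 14 in heart. Libraries under 100000 counts could not be left out of the member fits of N541 and of the libraries labelled testis, since no N541 pancreas library would remain. In N541 pancreas, 10255 to 66250 counts limit what can be seen.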

Other observations

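Some members differed between animals in the same way in several tissues, as seen after looking at the values and with no test. In N467 Snord66 stood at 3204 to 4209 CPM in the spleens of animals 1 to 5 and at 751 to 857 CPM in those of animals 6 to 10. In kidney the values were 496 to 553 and 91.02 to 138 CPM, in pancreas 2369.7 to 3060 and 312 to 498 CPM, and in liver 3944 to 22191 and 1121 to 2318 CPM, while in lung they overlapped. Of the 527 rows with a mean of at least 10 CPM in N467, 7 (1.33%) were higher in animals 1 to 5 without overlap in 4 or 5 tissues, and Snord66 was 1 of 35 members there. The tissue effect of Snord66 in liver was taken as its mean log2 level minus the average of the other 4 tissue means in the same set of animals, unpaired. It was 2.68 in animals 1 to 5 and 2.11 in animals 6 to 10.

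In N469 Snord65 went the other way. It stood at 7.62 to 32.8 CPM in the brains of animals 1 to 5 and at 45.9 to 97.9 CPM in those of animals 6 to 10, at 3.77 to 5.795 and 23.2 to 48.98 CPM in muscle, and at 5.66 to 20.98 and 22.2 to 25.7 CPM in heart. In intestine and bone marrow the 2 sets of animals overlapped. Without overlap in 4 or 5 tissues in that direction were 9 rows (1.44%) and 0 of 35 members. In N467 Snord65 had the reverse order in animals of the same numbers. In spleen it stood at 1263 to 1915 CPM in animals 1 to 5 and at 199 to 693 CPM in animals 6 to 10. In the other N467 tissues the 2 sets overlapped, with the higher median in animals 1 to 5. In pancreas the effect of Snord65 was 2.91 and 2.41 in the N467 animals 1 to 5 and 6 to 10, and that of Snord123 was 5.99 and 6.23. What sets these animals apart is not given in the labels.

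The row Snord43, classed as a miRNA in the table and so not a member, took a median of 10.9% of the counts of bone marrow in N541 and 11.5% of those of the libraries labelled testis.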
